A study of Mus musculus with 12 samples.

Results

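The colony-stimulating factors and their receptors were followed through a mouse microglial cell line with and without the kinase MOK, at rest and after lipopolysaccharide (LPS). The genes were the 9 rows of the count table whose Ensembl identifiers map to Csf1, Csf2, Csf3, Il34, Csf1r, Csf2ra, Csf2rb, Csf2rb2 and Csf3r, out of 55416 identifiers in all. The 4 ligands and 5 receptor chains all passed the filter on low counts, and 26420 genes were tested in total.

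SIM-A9 is a spontaneously immortalized microglial line from C57BL/6 mice. Total RNA was sequenced from 4 groups of cultures with 3 libraries each: the MOK knockout line H14 given LPS at 1 µg/mL for 5 h (KO LPS), H14 in medium alone (KO medium), the wild-type line given LPS in the same way (WT LPS) and the wild-type line in medium alone (WT medium). LPS, from the outer membrane of Gram-negative bacteria, is sensed by Toll-like receptor 4. MOK is a protein kinase of the wider MAP kinase family. H14 was the only knockout line, so the effect of losing MOK cannot be told apart from whatever else separates H14 from the wild-type line. The labels call the libraries of a group biological replicates without describing separate cultures. The p-values therefore measure the spread between these samples, which may be technical.

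Colony-stimulating factors are secreted cytokines that keep myeloid cells alive and drive their division and differentiation. CSF1 and IL-34 share the receptor tyrosine kinase CSF1R, on which microglia in the brain depend for survival. GM-CSF, encoded by Csf2, binds a dedicated alpha chain (Csf2ra) that pairs with the beta common chain (Csf2rb), and G-CSF, encoded by Csf3, binds the homodimer of CSF3R. The GM-CSF and G-CSF receptors signal through JAK kinases and STAT factors, whose target genes include feedback inhibitors of the SOCS family.

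Library totals lay between 39.7 M and 72.9 M counts. Mok had 1.92 to 2.58 CPM in KO medium and 3.21 to 3.52 CPM in WT medium (log2 fold change -0.58 ± 0.19 SE, edgeR adjusted p = 0.0501), where CPM is a count divided by the TMM-scaled library total in M counts. Under LPS Mok had at most 1.69 CPM in KO and at least 2.17 CPM in WT (-0.72 ± 0.19, adjusted p = 0.0177). The macrophage genes Cd68, Ptprc, Adgre1 and Spi1 each averaged at least 48.5 CPM in every group, whereas the homeostatic microglial genes P2ry12, Sall1 and Fcrls averaged under 1 CPM in every group. All 6 neutrophil markers and all 4 B cell markers stayed under 1 CPM on average in each group. Single markers of other cell types were higher. The endothelial gene Kdr averaged 95.9 to 121 CPM over the groups, while the other 3 endothelial markers stayed under 1 CPM. The oligodendrocyte gene Mbp averaged 5.15 to 20.1 CPM. The T cell gene Cd3e averaged 18.0 CPM in KO LPS, 2.44 in KO medium, 9.17 in WT LPS and 6.18 in WT medium, with Cd3d under 1 CPM throughout. The 4 dendritic cell markers summed to 10.7 to 13.2 CPM in KO LPS, 6.97 to 9.26 in KO medium, 4.59 to 5.11 in WT LPS and 2.68 to 3.11 in WT medium. Most of these sums was Zbtb46, which averaged 10.0, 6.77, 2.12 and 1.97 CPM in the same order. Flt3 averaged at most 1.68 CPM and Cd209a at most 0.173 CPM. Xcr1 was lower in KO than in WT, at 0.555 against 1.96 CPM under LPS and 0.215 against 0.367 CPM in medium. In these bulk libraries, fewer cells that express a gene and less RNA of it per cell cannot be told apart. KO LPS replicate 2 and, less clearly, WT medium replicate 2 stood apart from the other replicates of their groups. For KO LPS replicate 2 the chi-square over degrees of freedom was 185.8 and 103.3 against replicates 1 and 3, which differed from each other by 43.7. Identifiers with no symbol took 10.4% of the counts in KO LPS replicate 2 and 4.86% to 8.16% in the remaining libraries. WT medium replicate 2 differed from replicates 1 and 3 by 76.0 and 157.6, and these differed from each other by 59.0. Processed pseudogenes held 6.64% to 7.35% of the counts in KO LPS, 12.8% to 14.3% in KO medium, 6.28% to 7.05% in WT LPS, and 8.89%, 13.0% and 6.58% in WT medium replicates 1, 2 and 3. This share therefore moved with LPS in KO and with the line in medium, except in WT medium replicate 2, which lay in the range of KO medium. Where a fit with the share as a covariate ended a call on the 9 genes, its value is given. In KO the share separates all LPS libraries from all medium libraries, so such a fit can hardly tell the LPS effect from the share.

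LPS raised 3 of the 4 ligand genes, Csf1, Csf2 and Csf3, in both lines. Under LPS the H14 cells had far less Csf3 than the wild-type cells. They also had more Csf1, a call lost in 6 of 22 alternative settings. Of the receptors, the GM-CSF alpha chain Csf2ra was nearly absent from H14 cells in either condition, and Csf3r and Csf1r were lower there too. The Csf3r call in medium was lost in 9 of 22 alternative settings. By the edgeR quasi-likelihood test, 5 of the 9 genes changed with LPS in KO, against 52% of all genes tested. Of these 4 were higher, against 25.3% of all genes, and 1 was lower, against 26.8%. In WT, 6 of the 9 changed with LPS, against 32.6% of all genes tested, with 5 higher and 1 lower, against 16.3% in each direction. Between the lines, 6 of the 9 differed under LPS, against 20.6% of all genes tested, with 2 higher in KO (7.87% of all genes) and 4 lower (12.7%). In medium 5 differed, against 19.2%, with 2 higher in KO (6.88%) and 3 lower (12.3%). The libraries of the compared groups did not overlap in 61.4% of all genes tested for LPS in KO, 43% for LPS in WT, 38.9% for KO against WT under LPS and 35.6% in medium. The median log2 fold change of the 9 genes was 0.37 for LPS in KO, 0.63 for LPS in WT, -0.55 for KO against WT under LPS and 0.15 in medium. The medians over all genes tested, in the same order, were -0.03, -0.07, 0.07 and 0.04.

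**Figure D1:**
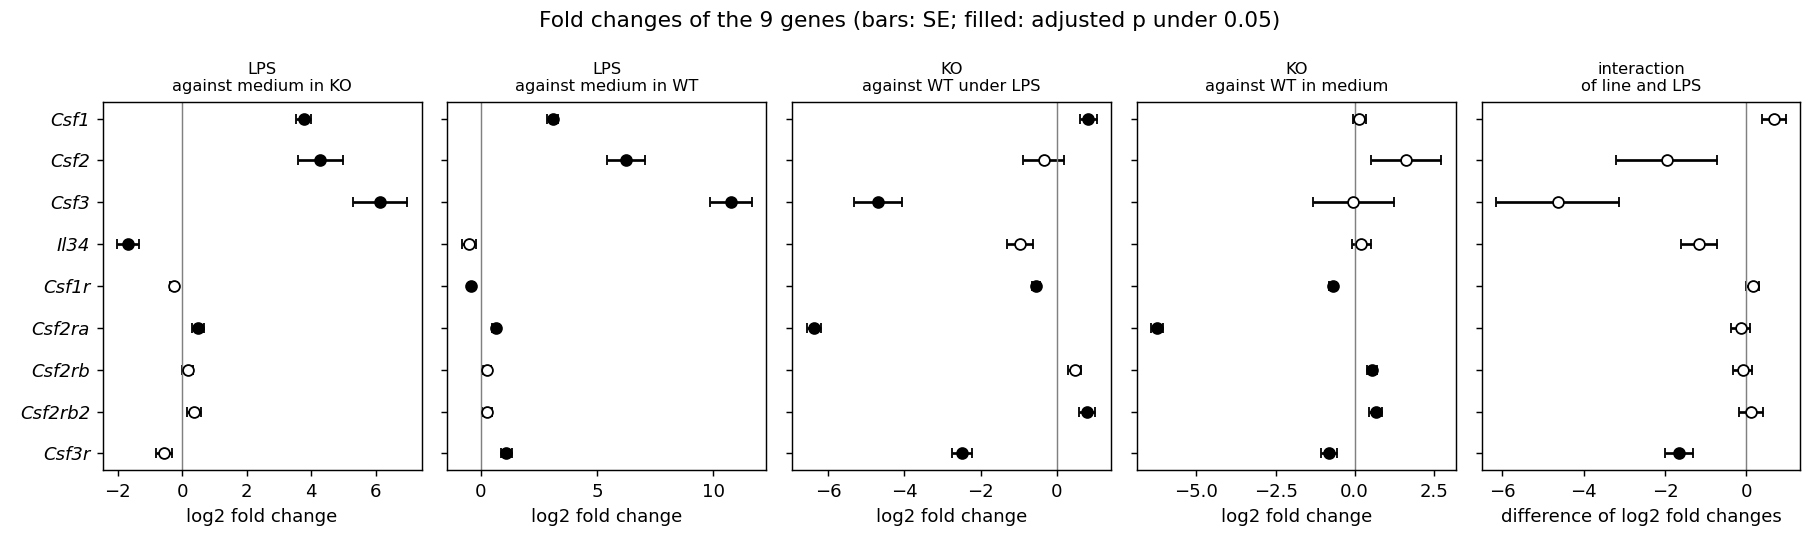
Log2 fold change of each of the 9 genes (horizontal axis, a separate scale in each panel) in the 5 comparisons, with bars of 1 SE and filled points where the adjusted p was under 0.05. Csf3 and Csf2ra stand far to the left in the comparison of KO with WT under LPS, at -4.69 and -6.37, and Csf1 and Csf2rb2 stand to the right at 0.82 and 0.78.

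Csf1, the growth factor of macrophages and microglia, was the most abundant ligand per unit length in KO LPS and in both medium groups. It had 2094, 1231 and 1886 CPM in KO LPS replicates 1, 2 and 3, and 156, 89.5 and 140 CPM in KO medium. In the wild-type line it had 966, 970 and 1007 CPM under LPS and 126, 106 and 115 CPM in medium. Every LPS library lay above every medium library, and all 3 KO LPS libraries lay above all 3 WT LPS libraries, while the lines overlapped in medium. On the log2 scale LPS raised Csf1 by 3.76 ± 0.24 in KO (adjusted p = 5.41e-07) and by 3.09 ± 0.23 in WT (adjusted p = 1.92e-06). Under LPS it was 1.77-fold higher in KO than in WT (log2 fold change 0.82 ± 0.21, adjusted p = 0.0167), and in medium the difference of 0.15 ± 0.21 did not pass (adjusted p = 0.624). The LPS response in KO minus that in WT, 0.67 ± 0.30, did not pass either (adjusted p = 0.354). The call between the lines under LPS was lost with no filter on low counts (adjusted p = 0.0788) and without KO LPS replicate 1 (0.0746) or 3 (0.0628). It was also lost without WT LPS replicate 1 (0.0603), 2 (0.0576) or 3 (0.0523), and the log2 fold changes of these fits were 0.66 to 0.84.

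The promoter of Csf1 is printed because this gene had the highest level per length of the 9 in KO LPS. The 300 bases run from 250 before to 50 after the RefSeq transcript start (GRCm38.p6, chr3:107760420-107760719, minus strand). Capitals mark 2 matches to GGGCGG, the GC box letters bound by SP1, which begin 51 and 41 bases before the start.
Csf1: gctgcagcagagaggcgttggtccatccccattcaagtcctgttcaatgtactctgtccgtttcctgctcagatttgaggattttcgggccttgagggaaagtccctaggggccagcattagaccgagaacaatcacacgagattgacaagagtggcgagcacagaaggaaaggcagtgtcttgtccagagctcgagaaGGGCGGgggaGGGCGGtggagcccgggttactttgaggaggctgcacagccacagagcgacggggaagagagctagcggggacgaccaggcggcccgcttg
Windows were in the RefSeq table for 5 of the 9 members, Csf1, Csf2, Csf2ra, Csf2rb2 and Csf3r. The letters GGGCGG occurred on either strand in 35.7% of all 32851 RefSeq windows and in 3 of those 5, Csf1, Csf2 and Csf2ra. The AP-1 letters TGANTCA occurred in 7.81% of all windows and in 0 of the 5. The GENCODE M21 start of Csf2 lies 232 bases downstream of the RefSeq start. The Csf2 window therefore leaves out the bases just before the GENCODE start. A match of letters is not a binding site, and its absence from this window says nothing about the factor.

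Csf3, the growth factor of neutrophil precursors, separated the lines more than any other ligand. Its counts were 319, 1544 and 157 in KO LPS, 9, 8 and 10 in KO medium, 22691, 13983 and 17116 in WT LPS and 7, 13 and 10 in WT medium. On the CPM scale that was 6.93, 28.4 and 3.69 in KO LPS, against 392, 348 and 271 in WT LPS. The medium libraries held 0.175, 0.177 and 0.203 in KO and 0.147, 0.281 and 0.156 in WT. The lowest WT LPS library was thus above the highest KO LPS library, and the lines overlapped in medium. In KO the rise with LPS was 69.8-fold (log2 fold change 6.13 ± 0.84, adjusted p = 0.000342). In WT it was 1743-fold (10.77 ± 0.90, adjusted p = 9.44e-06) and ranked 2 in absolute size among the 26420 genes. Under LPS, Csf3 was 25.8-fold lower in KO than in WT (-4.69 ± 0.64, adjusted p = 0.000411), a call kept in all 22 alternative settings. Without KO LPS replicate 2, whose Csf3 level was 5.34 times the mean of replicates 1 and 3, the difference was -5.99 (adjusted p = 1.75e-06) and the rise in KO was 4.84 (adjusted p = 5.58e-06). The response in KO minus that in WT, -4.64 ± 1.51, did not pass (adjusted p = 0.207). Without KO LPS replicate 2 it was -5.94 (adjusted p = 0.00171). DESeq2 gave -4.62 (adjusted p = 0.000378). The rise in KO was not called when the share of counts in processed pseudogenes was a covariate (5.07 ± 3.04, adjusted p = 0.462). The SE was far wider there than in the main fit, and that fit can hardly separate the share from LPS in KO.

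Csf2, which encodes GM-CSF, stayed low. It had 45, 227 and 40 counts in KO LPS, 4, 4 and 7 in KO medium, 185, 133 and 82 in WT LPS and 1, 2 and 2 in WT medium. The levels under LPS were 0.977, 4.17 and 0.941 CPM in KO and 3.19, 3.31 and 1.30 CPM in WT, so the lines overlapped through KO LPS replicate 2, which held 4.35 times the mean of the other KO LPS libraries. The pooled counts gave an LPS to medium ratio of 21.3 in KO (95% Clopper-Pearson interval 12.7 to 38.4) and of 78.4 in WT (33.3 to 243), intervals that cover counting error only. LPS raised Csf2 in both lines, with log2 fold changes of 4.28 ± 0.71 in KO (adjusted p = 0.000847) and 6.25 ± 0.84 in WT (adjusted p = 0.000166). With so few counts in medium, these fitted values depend on the model's handling of low counts. Without KO LPS replicate 2 the rise in KO was 3.20 (adjusted p = 0.000508). With the pseudogene share as a covariate it was not called in KO (2.04 ± 2.89, adjusted p = 0.816), where the share can hardly be separated from LPS. In WT it was 5.56 (adjusted p = 0.00547). The line difference under LPS was -0.34 ± 0.54 (adjusted p = 0.767), and without KO LPS replicate 2 it was -1.43 (adjusted p = 0.0277). In medium the fitted difference was 1.62 ± 1.12 (adjusted p = 0.287), with 15 counts in KO against 5 in WT, a ratio of 3.24 (1.12 to 11.4). An antisense gene that shares 8.7% of Csf2's 31-base words, Gm12223, held at most 3 counts in any library.

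Il34, which encodes the other ligand of CSF1R, was the ligand with the lowest level per length under LPS and went the other way. It had 8, 12 and 15 counts in KO LPS, 38, 47 and 31 in KO medium, 25, 17 and 37 in WT LPS and 27, 28 and 57 in WT medium. On the CPM scale these were 0.174, 0.220 and 0.353 in KO LPS, 0.738, 1.04 and 0.628 in KO medium, 0.431, 0.423 and 0.585 in WT LPS and 0.568, 0.605 and 0.887 in WT medium. The KO LPS libraries lay below all others, and the 2 WT groups overlapped. LPS lowered Il34 in KO by a log2 fold change of -1.69 ± 0.33 (adjusted p = 0.0022), whereas the values for LPS in WT (-0.52 ± 0.30, adjusted p = 0.208) and for KO against WT under LPS (-0.96 ± 0.34, adjusted p = 0.0675) did not pass. The interaction, -1.17 ± 0.45, was not called (adjusted p = 0.278). Without KO LPS replicate 3 the line difference under LPS was -1.28 (adjusted p = 0.0396). It was also called with only the groups compared in the fit (adjusted p = 0.04) and with protein-coding genes only (0.0345).

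**Figure D2:**
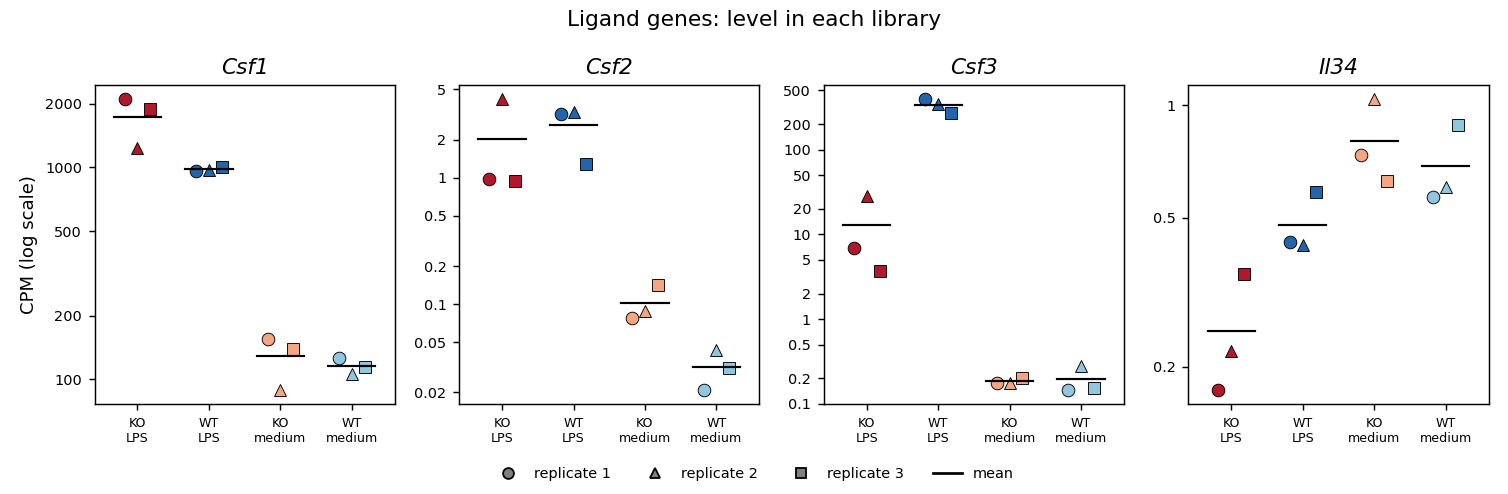
Level of each ligand gene in every library (vertical axis, CPM on a log scale) by group, with 1 point per library, its shape giving the replicate number, and a bar at the mean of 3. The 3 KO LPS points of Csf3 (3.69 to 28.4 CPM) sit below the WT LPS points (271 to 392 CPM), and those of Csf1 (1231 to 2094 CPM) sit above them (966 to 1007 CPM).

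Expressed per kilobase of exon, so that genes of different length can be compared, the ligand mix under LPS differed in its leading member. In KO LPS, Csf1 made up 95.8% of the 4 ligands' summed level (range 90.2% to 98.9% over the libraries), Csf3 3.24% (0.724% to 7.76%), Csf2 0.882% and Il34 0.0385%. In WT LPS, Csf3 made up 55.4% (49.9% to 59.7%), Csf1 43.8% (39.4% to 49.6%), Csf2 0.745% and Il34 0.0583%. The ranges of the lines did not overlap for Csf1 or for Csf3. In medium Csf1 dominated both lines, with 97.1% in KO and 97.6% in WT, and Il34 held 1.81% in KO and 1.57% in WT. These shares are descriptive and describe RNA, not secreted protein.

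**Figure D3:**
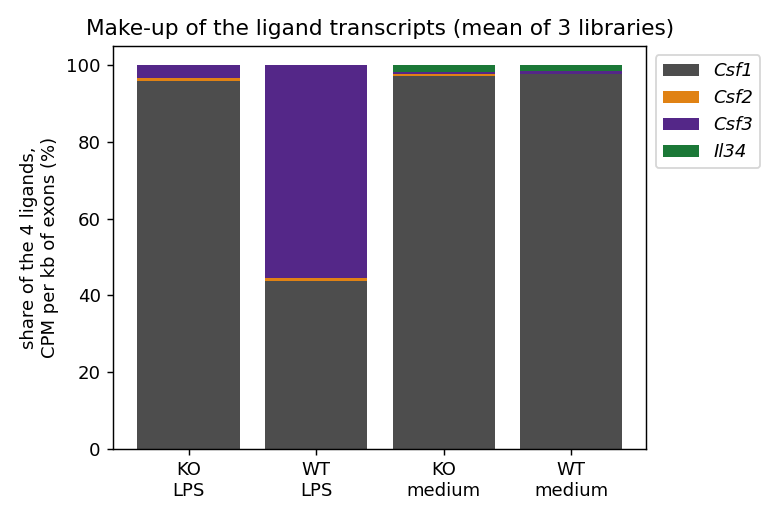
Share of each ligand in the summed level of the 4 ligand genes (vertical axis, percent of CPM per kilobase of exon, mean of 3 libraries) in each group. Csf3 fills 55.4% of the WT LPS bar and 3.24% of the KO LPS bar, and Csf1 fills at least 95.8% of each of the other bars.

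Csf2ra, the alpha chain that gives the GM-CSF receptor its specificity, showed the largest line difference among the receptors. It had 39, 54 and 46 counts in KO LPS and 41, 33 and 27 in KO medium, against 4041, 3895 and 4808 in WT LPS and 2368, 2270 and 3739 in WT medium. Its level was 0.847, 0.992 and 1.08 CPM in KO LPS, against 69.7, 97.0 and 76.0 CPM in WT LPS. In medium it was 0.796, 0.728 and 0.547 CPM in KO, against 49.8, 49.0 and 58.2 CPM in WT. No KO library exceeded 1.08 CPM, and every WT library had at least 49.0 CPM. Csf2ra was 83.0-fold lower in KO under LPS (log2 fold change -6.37 ± 0.18, adjusted p = 2.28e-09) and 75.5-fold lower in medium (-6.24 ± 0.19, adjusted p = 5.21e-09), and both calls were kept in all 22 alternative settings. In KO the LPS effect was 0.49 ± 0.19 (adjusted p = 0.0448), a call lost in 17 of 22 alternatives. Among them were the fits without KO LPS replicate 2 (adjusted p = 0.0917) or 3 (0.126) and without KO medium replicate 1 (0.0691), 2 (0.131) or 3 (0.277). The others that left out a library were those without WT LPS replicate 3 (0.0518) and without WT medium replicate 1 (0.0954), 2 (0.109) or 3 (0.0815), and these log2 fold changes were 0.31 to 0.57. With the pseudogene covariate the effect in KO was 0.16 (adjusted p = 0.845). LPS raised Csf2ra in WT by 0.63 ± 0.14 (adjusted p = 0.00583). That call was lost when libraries were scaled by size alone (0.30, adjusted p = 0.139) and without WT medium replicate 1 (0.52, adjusted p = 0.0527). The interaction was -0.14 ± 0.23 (adjusted p = 0.858).

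The promoter windows of Csf2ra and Csf3r are shown because these were the receptor genes with the largest line differences. Capitals mark, in Csf2ra (GRCm38.p6, chr19:61228369-61228668, minus strand), overlapping matches on both strands to TGACGTC, from the cyclic AMP response element, 92 and 91 bases before the start. They also mark a pair of overlapping matches to GAGGAAG, a core bound by the myeloid factor PU.1, 14 and 8 bases before the start. In Csf3r (chr4:126024409-126024708, plus strand) they mark 1 match to GAGGAAG, 86 bases before the start.
Csf2ra: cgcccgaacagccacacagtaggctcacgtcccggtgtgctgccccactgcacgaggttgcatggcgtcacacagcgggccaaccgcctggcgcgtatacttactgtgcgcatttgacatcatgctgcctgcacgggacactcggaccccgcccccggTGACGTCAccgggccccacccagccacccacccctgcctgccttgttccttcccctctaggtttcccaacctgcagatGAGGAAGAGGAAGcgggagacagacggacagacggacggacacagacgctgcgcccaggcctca
Csf3r: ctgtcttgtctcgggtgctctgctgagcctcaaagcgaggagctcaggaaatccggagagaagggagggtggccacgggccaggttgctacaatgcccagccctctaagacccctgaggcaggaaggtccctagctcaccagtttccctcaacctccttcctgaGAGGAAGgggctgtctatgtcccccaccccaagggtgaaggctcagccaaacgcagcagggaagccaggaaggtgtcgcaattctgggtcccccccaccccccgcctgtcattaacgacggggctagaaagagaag
The letters GAGGAAG were found on either strand in 13.6% of the 32851 windows and in 3 of the 5 members, Csf2rb2 being the other one, and TGACGTC in 3.21% of windows and in Csf2ra alone of the 5. Spi1, the gene of PU.1, averaged 226 ± 35.6 CPM in KO LPS and 258 ± 14.7 CPM in WT LPS (log2 fold change -0.19 ± 0.11, adjusted p = 0.28), and 67.5 ± 4.61 CPM in KO medium and 120 ± 4.33 CPM in WT medium (-0.83 ± 0.11, adjusted p = 0.000292; SD, n = 3 each). Whether this bears on Csf2ra or Csf3r was not tested.

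Csf3r, the G-CSF receptor, was lower in H14 cells and moved differently with LPS in the 2 lines. It had 3.43, 2.06 and 2.12 CPM in KO LPS, 4.86, 2.74 and 3.63 in KO medium, 14.6, 16.4 and 11.3 in WT LPS and 7.37, 6.07 and 6.32 in WT medium. All WT libraries lay above all KO libraries, the LPS libraries of WT lay above its medium libraries, and the 2 KO groups overlapped. Under LPS Csf3r was 5.56-fold lower in KO than in WT (log2 fold change -2.48 ± 0.26, adjusted p = 4.02e-05), a call kept in all 22 alternatives. In KO the LPS effect was -0.56 ± 0.25 (adjusted p = 0.0825), whereas LPS raised Csf3r in WT by 1.10 ± 0.25 (adjusted p = 0.0064). The interaction, the first of these values minus the other, was -1.66 ± 0.35 (adjusted p = 0.0427), which made Csf3r the 1 member of 9 called in that test, against 1.6% of all genes tested. That call was lost with the pseudogene share as a covariate (-1.72, adjusted p = 0.0837). It was lost without KO LPS replicate 2 (0.0698) or 3 (0.127) and without KO medium replicate 1 (0.0966) or 3 (0.104). The call also went without WT LPS replicate 1 (0.118), 2 (0.12) or 3 (0.0543) and without WT medium replicate 1 (0.0913) or 3 (0.076), and all these values lay between -1.80 and -1.42. In medium Csf3r was lower in KO by a log2 fold change of -0.81 ± 0.25 (adjusted p = 0.0413). This was lost with only the groups compared in the fit (0.0745), with the covariate (0.198) and without KO LPS replicate 3 (0.0503) or KO medium replicate 2 (0.12) or 3 (0.108). The same held without WT LPS replicate 1 (0.0622) or 2 (0.0531) and without WT medium replicate 1 (0.112) or 3 (0.0702). The fall in KO was called without KO LPS replicate 1 (-0.84, adjusted p = 0.0228) or KO medium replicate 2 (-0.80, adjusted p = 0.0283). Csf3r shares 19.9% of its 31-base words with a processed pseudogene, AC105061.2, so reads could be split between them.

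Csf1r, the receptor of CSF1 and IL-34, was the receptor that fell with LPS in WT. It had 123, 130 and 118 CPM in KO LPS, 167, 126 and 152 in KO medium, 187, 175 and 179 in WT LPS and 269, 234 and 217 in WT medium. Every KO LPS library lay below every WT LPS library, and every KO medium library lay below every WT medium library. Csf1r was lower in KO under LPS by -0.55 ± 0.11 (adjusted p = 0.00359) and in medium by -0.70 ± 0.11 (adjusted p = 0.000937) on the log2 scale, calls kept in all 22 alternatives. In KO the LPS effect of -0.26 ± 0.11 did not pass (adjusted p = 0.0611). It passed without KO medium replicate 2 (-0.42, adjusted p = 0.00398), without WT medium replicate 1, 2 or 3 (-0.30 to -0.31, adjusted p of 0.0253 to 0.0272) and in 5 other settings. LPS lowered Csf1r in WT by -0.41 ± 0.11 (adjusted p = 0.0139). That call was lost when the pseudogene share was a covariate (0.0645), and also without WT LPS replicate 2 (-0.39) or 3 (-0.40), where the adjusted p was 0.051 each. The interaction was 0.15 ± 0.15 (adjusted p = 0.674). The 3' end of Csf1r overlaps that of Hmgxb3 on the opposite strand, and 14.6% of its 31-base words lie in that gene, whose counts ran from 2801 to 7950. The strand setting of the counting is not given in the sources used here, so Csf1r counts near that end are uncertain.

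Csf2rb encodes the beta common chain shared by the receptors for GM-CSF, IL-3 and IL-5, and Csf2rb2 encodes an IL-3-specific beta chain that mice have beside it. Both lie on chromosome 15, and their coding sequences of 2688 and 2634 bases were 95.2% identical over 2628 aligned columns, with an identical run of 242 bases from coding position 2083. The stretch from position 2043 to 2122 of the GENCODE M21 coding sequences, at the start of that run, shows why short reads can be ambiguous between them; capitals mark the 5 bases that differ.
Csf2rb: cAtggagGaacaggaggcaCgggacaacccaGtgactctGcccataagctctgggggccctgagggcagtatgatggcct
Csf2rb2: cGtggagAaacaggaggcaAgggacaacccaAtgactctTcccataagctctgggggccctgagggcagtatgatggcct
Because of this likeness, the genes were also tested with their counts summed.

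Csf2rb had 303, 174 and 299 CPM in KO LPS, 238, 217 and 237 in KO medium, 193, 182 and 189 in WT LPS and 158, 157 and 158 in WT medium. Csf2rb2 had 213, 102 and 193 CPM in KO LPS, 130, 127 and 137 in KO medium, 100, 94.5 and 101 in WT LPS and 79.6, 93.2 and 75.1 in WT medium. In medium, all KO libraries lay above all WT libraries for both genes. Under LPS, KO LPS replicate 2 was 1.73-fold lower for Csf2rb and 2.00-fold lower for Csf2rb2 than the mean of replicates 1 and 3. It lay below all WT LPS libraries for Csf2rb and just above them for Csf2rb2. In medium Csf2rb was higher in KO by 0.55 ± 0.16 (adjusted p = 0.038) and Csf2rb2 by 0.67 ± 0.21 (adjusted p = 0.0487). The summed counts were higher by 0.59 ± 0.18 (adjusted p = 0.041). Under LPS Csf2rb2 was higher in KO by 0.78 ± 0.21 (adjusted p = 0.022) and the summed counts by 0.58 ± 0.18 (adjusted p = 0.0414), while Csf2rb alone, at 0.46 ± 0.16, did not pass (adjusted p = 0.0736). Without KO LPS replicate 2, Csf2rb was called under LPS at 0.68 (adjusted p = 7.03e-05), and the LPS effect was called in KO for Csf2rb (0.39, adjusted p = 0.00197) and Csf2rb2 (0.64, adjusted p = 0.000514). In the same fit it was called in WT as well, at 0.26 for Csf2rb (adjusted p = 0.0102) and 0.26 for Csf2rb2 (adjusted p = 0.0388). Csf2rb in WT was also called with only the groups compared (0.16, adjusted p = 0.0383). The LPS effects with all libraries were 0.16 ± 0.16 (adjusted p = 0.429) and 0.37 ± 0.21 (0.163) in KO and 0.25 ± 0.16 (0.252) and 0.25 ± 0.21 (0.372) in WT, for Csf2rb and Csf2rb2 in that order. The share of Csf2rb2 in the summed level was 36.9% to 41.4% in KO LPS, 35.3% to 36.9% in KO medium, 34.2% to 34.7% in WT LPS and 32.2% to 37.3% in WT medium.

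The calls on the beta chains were fragile. In medium the Csf2rb call was lost in 10 of 23 alternatives. The adjusted p was 0.0951, 0.0588 and 0.114 without KO medium replicate 1, 2 and 3, and the call was also lost without WT LPS replicate 1 (0.0567), 2 (0.0549) or 3 (0.0572) and without WT medium replicate 1 (0.117) or 3 (0.0767). The Csf2rb2 call in medium was lost in 13 of 23. These included the fits without KO LPS replicate 3 (0.0603), KO medium replicate 1 (0.0965), 2 (0.09) or 3 (0.132), WT LPS replicate 1 (0.0701), 2 (0.0676) or 3 (0.0698), and WT medium replicate 1 (0.145) or 3 (0.139). Under LPS the Csf2rb2 call was lost in 7 of 23, among them the fits without KO LPS replicate 1 (0.0932) or 3 (0.0864) and WT LPS replicate 1 (0.0649), 2 (0.0755) or 3 (0.0644). When the pseudogene share entered as a covariate, the difference in medium was 0.49 for Csf2rb (adjusted p = 0.26) and 0.41 for Csf2rb2 (adjusted p = 0.474). The fits with a library left out that lost these calls kept a higher level in KO, with log2 fold changes between 0.50 and 0.80. For the summed counts, the call in medium was lost in 10 of 22 alternatives. These included the fits without KO medium replicate 1 (0.0932), 2 (0.0682) or 3 (0.118), WT LPS replicate 1 (0.0604), 2 (0.0587) or 3 (0.0608), and WT medium replicate 1 (0.125) or 3 (0.096). Under LPS the summed call was lost in 11 of 22. It went without KO LPS replicate 1 (0.172) or 3 (0.159), KO medium replicate 1 (0.0563), 2 (0.0527) or 3 (0.0573), WT LPS replicate 1 (0.1), 2 (0.123) or 3 (0.106), and WT medium replicate 1 (0.0594).

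**Figure D4:**
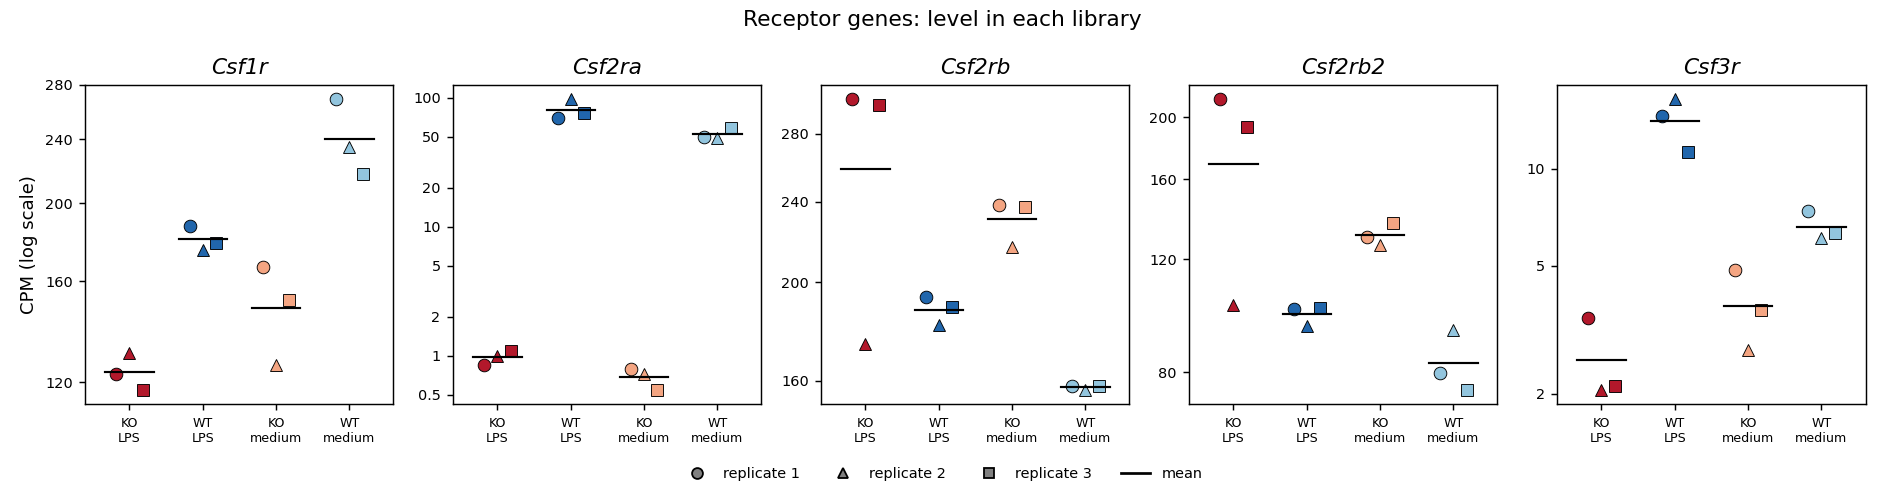
Level of each receptor gene in every library (vertical axis, CPM on a log scale, a separate range in each panel) by group, with 1 point per library, its shape giving the replicate number, and a bar at the mean of 3. All KO points of Csf2ra lie near 1 CPM or below, and KO LPS replicate 2 lies below the other KO LPS points of Csf2rb and Csf2rb2.

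On the scale of CPM per kilobase of exon, the order of the receptor chains differed between the lines. In KO LPS, Csf2rb2 (35.7 ± 12.6) and Csf2rb (35.5 ± 10.1) came first and did not differ beyond their spread, followed by Csf1r (21.4 ± 1.11), Csf3r (0.702 ± 0.215) and Csf2ra (0.339 ± 0.0414). In WT LPS the order was Csf1r (31.2 ± 1.12), Csf2ra (28.2 ± 4.98), Csf2rb (25.8 ± 0.808), Csf2rb2 (20.8 ± 0.727) and Csf3r (3.91 ± 0.723), where Csf2ra lay within its spread of both neighbours (mean ± SD, n = 3 each). In KO medium the order was Csf2rb (31.7 ± 1.68), Csf2rb2 (27.7 ± 1.08), Csf1r (25.7 ± 3.54), Csf3r (1.04 ± 0.295) and Csf2ra (0.241 ± 0.0449), and in WT medium it was Csf1r (41.6 ± 4.54), Csf2rb (21.7 ± 0.0972), Csf2ra (18.2 ± 1.77), Csf2rb2 (17.4 ± 1.98) and Csf3r (1.82 ± 0.191). In medium, the mean of Csf2rb2 lay within 1 SD of Csf1r in KO but not the reverse, and Csf2ra and Csf2rb2 in WT lay within each other's SD. The alpha chain thus stood at the bottom of the receptor order in KO and above Csf3r in WT.

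The genes that read out or relay these receptors came from lists chosen with earlier results of these data known. Of 13 STAT targets and feedback genes, all tested, 4 were higher and 5 lower in KO than in WT under LPS (median log2 fold change -0.47), and 3 were lower in medium (median -0.21). Over all genes tested, 7.87% were higher and 12.7% lower under LPS, and 12.3% were lower in medium. With LPS, 9 rose and 2 fell in KO (median 1.67), and 11 rose and 1 fell in WT (median 1.82), where 25.3% of all genes rose and 26.8% fell in KO and 16.3% did each in WT. The interaction was called for 3 genes upward and 4 downward, against 0.693% and 0.908% of all genes tested. The strongest of these was Cish, a STAT5-induced inhibitor of cytokine receptor signalling. Cish had 1.87, 1.14 and 1.62 CPM in KO LPS, 0.621, 0.839 and 0.689 in KO medium, 26.2, 26.3 and 19.7 in WT LPS and 0.737, 0.648 and 0.747 in WT medium. Its LPS response was 1.10 ± 0.21 in KO (adjusted p = 0.00192) and 5.07 ± 0.23 in WT (adjusted p = 3.71e-08) on the log2 scale, a difference of -3.97 ± 0.30 (adjusted p = 0.000118). The level under LPS was lower in KO by -3.96 ± 0.21 (adjusted p = 2.44e-07).

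Socs2, another STAT5-induced inhibitor, had 1.82, 1.84 and 1.93 CPM in KO LPS, 2.89, 2.83 and 3.06 in KO medium, 8.54, 9.09 and 6.67 in WT LPS and 3.68, 2.89 and 3.19 in WT medium. It fell with LPS in KO (-0.65 ± 0.16, adjusted p = 0.00703) and rose in WT (1.31 ± 0.16, adjusted p = 8.88e-05), with no overlap of KO LPS with any other group, and the difference was -1.96 ± 0.23 (adjusted p = 0.00232). Il4ra, the interleukin-4 receptor alpha chain, likewise fell in KO (-0.50 ± 0.11, adjusted p = 0.00368) and rose in WT (0.88 ± 0.11, adjusted p = 0.000103), a difference of -1.38 ± 0.15 (adjusted p = 0.0018). The cytokine gene Osm averaged 20.9 ± 0.282 CPM in KO LPS and 85.7 ± 5.46 CPM in WT LPS (SD, n = 3 each), lower in KO by -2.04 ± 0.08 (adjusted p = 1.99e-08). The kinase gene Pim1 rose in both lines, by 4.68 ± 0.20 in KO (adjusted p = 2.19e-08) and 3.96 ± 0.19 in WT (adjusted p = 6.41e-08). The survival gene Bcl2l1 rose by 3.94 ± 0.15 in KO (adjusted p = 1.12e-08) and 2.69 ± 0.14 in WT (adjusted p = 1.38e-07). In medium it was lower in KO by -1.72 ± 0.14 (adjusted p = 8.67e-06). Its response in KO minus that in WT was 1.25 ± 0.19 (adjusted p = 0.00868). The interaction was also called upward for Pim2 (0.77 ± 0.12, adjusted p = 0.00868) and Ccnd1 (0.86 ± 0.13, adjusted p = 0.0083). It was also called downward for Osm (-0.82 ± 0.11, adjusted p = 0.00392). The upward calls and that of Osm were not refitted in the alternative settings. The link between these genes and any member was not tested.

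**Figure D5:**
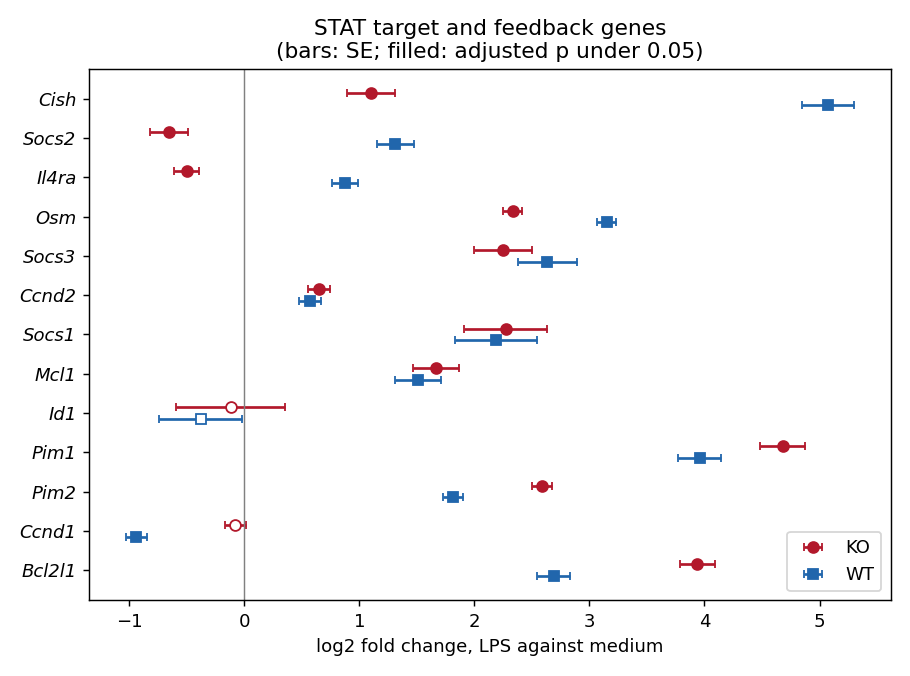
Log2 fold change of LPS against medium (horizontal axis, bars of 1 SE) for the 13 STAT target and feedback genes in KO (circles) and WT (squares), ordered by the difference, with filled points where the adjusted p was under 0.05. Cish stands at 1.10 in KO and 5.07 in WT, and Socs2 at -0.65 in KO and 1.31 in WT.

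Of 22 genes of receptor signalling, 3 were higher and 4 lower in KO than in WT under LPS (median log2 fold change -0.16), against 7.87% and 12.7% of all genes tested. In medium 3 were lower (median 0.04), a share near the 12.3% of all genes tested. Stat5a, a main effector of the GM-CSF receptor, had 94.1, 37.6 and 87.4 CPM in KO LPS and 42.2, 32.7 and 39.3 CPM in WT LPS, so the groups overlapped through KO LPS replicate 2. It was higher in KO by 0.94 ± 0.27 (adjusted p = 0.0298). That call was lost with no filter on low counts (0.107), with only the groups compared (0.0919) and without KO LPS replicate 1 (0.122) or 3 (0.112) or WT LPS replicate 1 (0.0624), 2 (0.109) or 3 (0.0823), at log2 fold changes of 0.71 to 1.02. The myeloid kinase gene Fes was lower in KO under LPS (-0.93 ± 0.18, adjusted p = 0.00268) and in medium (-0.95 ± 0.18, adjusted p = 0.00291), as was Tyk2, a JAK kinase gene, in medium (-1.05 ± 0.20, adjusted p = 0.00365). With LPS, 10 of the 22 rose and 4 fell in KO (median 0.17), against 25.3% and 26.8% of all genes. In WT 8 rose and 2 fell (median 0.18), against 16.3% each. Jak2, the kinase bound to the beta common chain, rose by 1.78 ± 0.20 in KO (adjusted p = 6.43e-05) and by 2.48 ± 0.21 in WT (adjusted p = 5.91e-06).

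Among 7 myeloid transcription factor genes, 3 were lower in KO under LPS (median log2 fold change -0.19), against 12.7% of all genes tested. In medium 4 were lower (median -0.82), against 12.3%, and none was higher in either condition. Cebpe, a factor of granulocyte differentiation, averaged 2.58 ± 0.612 CPM in KO LPS and 14.9 ± 0.871 CPM in WT LPS (log2 fold change -2.53 ± 0.17, adjusted p = 1.53e-06). In medium it averaged 4.49 ± 0.451 CPM in KO and 13.3 ± 1.10 CPM in WT (-1.56 ± 0.17, adjusted p = 6.26e-05; SD, n = 3 each). Maf had 0.955, 0.900 and 1.01 CPM in KO LPS and 8.71, 3.94 and 2.62 CPM in WT LPS (-2.41 ± 0.59, adjusted p = 0.0133), a call lost without KO LPS replicate 1 (-2.42, adjusted p = 0.0514) or 2 (-2.37, adjusted p = 0.0525) or WT LPS replicate 1 (-1.78, adjusted p = 0.0571). In medium Maf was lower in KO by -3.29 ± 0.61 (adjusted p = 0.00339), at -3.91 without KO medium replicate 1 and -2.62 without WT medium replicate 1. With LPS, 4 of the 7 rose and 1 fell in each line (median 0.95 in KO and 0.62 in WT), against 25.3% and 26.8% of all genes in KO and 16.3% each in WT. Of the 4 genes for other binding partners of IL-34 and for proteases that release CSF1 or its receptor from the membrane, 1 was lower in KO under LPS and 3 were lower in medium, against the same 12.7% and 12.3%. Adam17, a protease that sheds CSF1R, was lower in KO under LPS (-0.57 ± 0.09, adjusted p = 0.000797) and in medium (-0.84 ± 0.09, adjusted p = 7.46e-05) and rose with LPS in both lines, by 1.26 ± 0.09 in KO (adjusted p = 1.59e-06) and 1.00 ± 0.09 in WT (adjusted p = 8.83e-06). Of the other beta common chain ligands and alpha chains, Il3, Il5 and Il5ra held 39, 53 and 37 counts summed over the 12 libraries and were not tested. Il3ra, the IL-3 receptor alpha chain, held only 16, 20 and 17 counts in KO LPS and 35, 37 and 40 in WT LPS. It was lower in KO under LPS (-0.94 ± 0.28, adjusted p = 0.0341). That call was lost without KO LPS replicate 1 (0.104), 2 (0.0868) or 3 (0.0735), KO medium replicate 3 (0.0522) or WT LPS replicate 2 (0.118) or 3 (0.0556), at -0.74 to -1.02.

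Over the 12 libraries, the genes whose log2 CPM ran most like a member's were sought among protein-coding genes averaging 2 or more on that scale. All 12 libraries share the same treatment and line contrasts, so these correlations are descriptive. For Csf1 they were St3gal1, Rassf4 and Zfp827 (Pearson r of 0.999, 0.997 and 0.996). For Csf3 they were Slc38a1, Trim13 and F3 (0.984, 0.982 and 0.982), and for Csf2 Tra2a, Errfi1 and Hbegf (0.984, 0.983 and 0.979). Csf2ra ran most like Map3k15, Slc7a2 and Stom (0.996, 0.996 and 0.995), Csf3r like Vipas39, Zkscan6 and Carhsp1 (0.980, 0.971 and 0.968) and Csf1r like Rnf128, Idh1 and Asxl2 (0.967, 0.966 and 0.965). The beta chain genes ran most like each other (0.974), and Stat5a was the next gene for Csf2rb2 (0.960). Il34 had the loosest neighbours, Ppp2r5d, Ehmt2 and Cc2d1b (0.917, 0.912 and 0.909).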

How the data were processed

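Total RNA from 12 SIM-A9 cultures was sequenced after ribosomal RNA depletion with a stranded kit, per the labels' protocols. The authors deposited unnormalized read counts for each Ensembl gene. Their tools were FastQC 0.11.9, Trimmomatic 0.39, STAR 2.7.9a, featureCounts and DESeq2 1.32.0 on the GRCm39 build, according to the submitters' processing notes. Which annotation release and strand setting were used, and how multi-mapping reads were counted, is not given in the sources used here. Symbols, exon lengths and transcript sequences came from GENCODE M21 (GRCm38), with 52135 of 55416 identifiers matched, and promoter windows from RefSeq (GRCm38.p6). No coordinate of the authors' build is given.

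The counts went into edgeR 4.0.16 under R 4.3.3 (filterByExpr with a count minimum of 10, TMM scaling, robust glmQLFit, 4 group means over 12 libraries). The common biological coefficient of variation was 0.235. Genes with a Benjamini-Hochberg adjusted p below 0.05, over the 26420 tested in each comparison, count as called. The comparisons were LPS against medium in each line, KO against WT in each condition, and their interaction (LPS effect in KO minus that in WT). Log2 fold changes carry the model's SE, and CPM values are means ± SD with n = 3. Depth was 39.7 M to 72.9 M counts per library, and intervals on count ratios cover counting error only.

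The text names all 9 members, the 3 called genes with the largest change of each pathway list per comparison, and the 3 genes most correlated with each member. Ccnd1 is named outside that rule, for its interaction. Some genes named by that rule are left out for length, and a few list genes are not reported here and stay out of the list counts. The members and lists were chosen with earlier results of these data known. The fit was tried on simulated counts with 100 genes changed 2-fold and 100 changed 4-fold. Every simulated gene had the same biological coefficient of variation. The simulation held no outlying library, no shift in the pseudogene share and no broad response. It therefore does not show how stable the calls are here. Alternatives were RLE scaling, scaling by library size, a stricter filter (50 counts in 3 libraries) or none, DESeq2 1.42.0, a fit that was not robust, a block for the replicate number, fits of the compared groups alone, protein-coding genes only (16173), the log2 share of processed pseudogenes as a covariate, Csf2rb and Csf2rb2 summed, and each library left out. Sequence sharing was counted as words of 31 bases that also occur in another gene's transcripts.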

Additional observations from a re-analysis of the deposited data

Results flagged for a closer look

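Csf3r, Cish, Socs2 and Il4ra responded to LPS differently in the 2 lines by the edgeR interaction test, the LPS effect in KO minus that in WT. For Cish the difference was -3.97 (adjusted p = 0.000118), for Socs2 -1.96 (adjusted p = 0.00232) and for Il4ra -1.38 (adjusted p = 0.0018), and all 3 calls were kept in every library left out, with adjusted p values of at most 0.00116, 0.0116 and 0.00943. For Csf3r it was -1.66 (adjusted p = 0.0427), a call that did not survive leaving out most single libraries, as given with its levels. With 3 libraries in each group, no formal test for an outlying library was run, and each library was only left out in turn.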

How the results depend on the processing

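Over the settings other than leaving out a library, 398 of 444 values of the 9 genes kept their direction and their side of the threshold, and 465 of 540 did so with a library left out. Calls kept in every setting that gave a value were those of Csf1 and Il34 for LPS in KO, Csf1, Csf2, Csf3 and Csf3r for LPS in WT, Csf2ra and Csf1r for KO against WT in both conditions, and Csf3 and Csf3r for KO against WT under LPS. With TMM replaced by plain library size, the median over all genes shifted by -0.26 for LPS in KO and by -0.34 for LPS in WT, and against that shift the LPS effect turned to -0.10 for Csf2rb in KO and -0.083 in WT, to -0.084 for Csf2rb2 in WT, and to -0.021 in KO and -0.083 in WT for their summed counts. The interaction of the summed counts, near 0 at -0.012 (also the value for Csf2rb2 once summed), was 0.062 with library size alone, 0.0028 with RLE, 0.0029 with DESeq2 and 0.10 with the pseudogene covariate, which also turned Csf3 in medium to 0.65.

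With no filter on low counts, 3 members were called between the lines in medium, and the summed difference was not called at 0.57 in medium (adjusted p = 0.12) or 0.54 under LPS (0.157). With only the groups compared, the summed difference under LPS was 0.56 (adjusted p = 0.0813), and 3354 of all genes were called in medium, against 5074. With the covariate, 2 members were called for LPS in KO, 2 between the lines in medium and none (0) in the interaction, the summed difference in medium was 0.46 (adjusted p = 0.337), and over all genes 2001 were called for LPS in KO (against 13749), 5574 for LPS in WT (8600), 2342 in medium (5074) and 199 in the interaction (423). Protein-coding genes alone gave 8285 for LPS in KO and 670 in the interaction. DESeq2 called 857 genes and 2 members in the interaction. The cause of these shifts was not tested.

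Leaving out single libraries gave 2 to 5 members called between the lines in medium, 4 to 8 under LPS, and 0 to 1 in the interaction. Over all genes it gave 10883 to 14648 calls for LPS in KO, 5322 to 10400 for LPS in WT (5322 and 5695 without WT LPS replicates 1 and 3), 3444 to 11265 between the lines in medium (11265 without WT medium replicate 2) and 186 to 3995 in the interaction. The interaction gave 3995 calls without WT medium replicate 2, and 186 to 266 without KO LPS replicate 1 or 3, KO medium replicate 1 or 3, any WT LPS replicate, or WT medium replicate 1. The summed beta chain effect ranged from 0.090 to 0.48 for LPS in KO, 0.17 to 0.29 for LPS in WT, 0.54 to 0.62 between the lines in medium, 0.42 to 0.81 under LPS and -0.17 to 0.22 in the interaction. The interaction ranged from -0.087 to 0.38 for Csf2rb2, -0.22 to 0.13 for Csf2rb and -0.26 to 0.013 for Csf2ra, and the difference in medium from -0.031 to 0.34 for Csf1, -0.038 to 0.44 for Il34 and -0.23 to 0.25 for Csf3.

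The replicate numbers were not treated as pairs in the main fit. Of 18 same-numbered pairs of libraries, 11 deviated together with a correlation over 0.1 (range -0.37 to 0.39). The same number was not always the closest. KO medium replicate 1 correlated at 0.39 with WT medium replicate 1 and at 0.44 with another WT medium library. For replicate 3 of these groups the values were -0.37 and 0.43. KO LPS replicate 2 went the other way, at 0.33 with KO medium replicate 2 and at most -0.069 with the other KO medium libraries. Whether libraries of the same number share a batch was not tested, so the fit with a block for that number is given beside the main one. With the replicate block, 661 genes were called in the interaction, against 423. Under the block, Csf1r (-0.25, adjusted p = 0.0403) and Csf3r (-0.57, adjusted p = 0.0387) were called for LPS in KO, and Csf2ra for LPS in KO (0.48, adjusted p = 0.0561) and Csf2rb2 in medium (0.66, adjusted p = 0.0679) were not. Depth limits Csf2 in medium, with 1 to 7 counts a library, and Il34 in KO LPS, with 8 to 15. The stricter filter removed Il34 (and Il3ra), and the fit of the medium groups alone removed Csf2 and Csf3, so these settings gave no value for them.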
